A study of Homo sapiens with 9 samples.

Results

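Peaks of SRA ChIRP-seq were examined around 7 genes of heme synthesis and iron handling in K562 cells, namely ALAS2, CPOX, PPOX, TF, TFRC, SLC11A2, and FTH1. A peak was taken when its centre lay within 100 kb of one of the 7 gene starts in hg19, and 30 of 20698 deposited peaks did so. The genes were given by name, with earlier results of the study and its peaks known. Expression after SRA silencing was not analysed here.

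All samples came from K562, an established cell line of human erythroleukemia, and no treatment is named for any of them. SRA, the steroid receptor RNA activator, is a long non-coding RNA. In ChIRP, biotinylated oligonucleotides pull down an RNA with the chromatin crosslinked to it. The 2 groups are named by their probes, against SRA or, as the negative control, against LacZ, a bacterial transcript. Each group had 3 samples with 1 list of MACS peaks per sample, and 3 input samples were not analysed here. The lists held 4982, 4946, and 5187 peaks for SRA and 2676, 2617, and 290 peaks for LacZ. LacZ list 3 stood apart from the others, with a median peak width of 1113.5 bp against 155 to 158 bp in the other lists. The lists give positions and scores without read counts or expression, so read depth is unknown and the cell type could not be checked against its markers.

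Developing red cells make large amounts of heme, the iron-containing ring of hemoglobin. ALAS2, the erythroid form of aminolevulinate synthase, carries out the first and rate-limiting step, and CPOX and PPOX oxidize late porphyrin intermediates in the mitochondrion. Iron arrives on TF, the plasma carrier transferrin, is taken up through its receptor TFRC, and leaves the endosome through the transporter SLC11A2. FTH1, the heavy chain of ferritin, stores iron that is not used. Other genes of the pathway were not analysed here.

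SRA peaks lay within 100 kb of 5 of the 7 genes, ALAS2, PPOX, TFRC, SLC11A2, and FTH1, whereas CPOX and TF had no peak of either probe set in this range. Overlapping SRA peaks were joined, and the result is called an SRA-binding region where at least 2 of 3 SRA lists contributed and no LacZ peak overlapped. By this rule there were 5 SRA-binding regions, 1 at each of the 5 genes, out of 4550 in the genome. The 4 regions at ALAS2, TFRC, SLC11A2, and FTH1 were in all 3 SRA lists, and the region at PPOX was in lists 1 and 2. None of the 10 distinct SRA peaks near the genes overlapped a LacZ peak, as is usual in the genome, where 0.901% of 8658 did, and LacZ peaks were also present within 100 kb of 4 of the 7 genes, PPOX, TFRC, SLC11A2, and FTH1. ALAS2 was the 1 gene with SRA peaks and without a LacZ peak in this range.

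**Figure D1:**
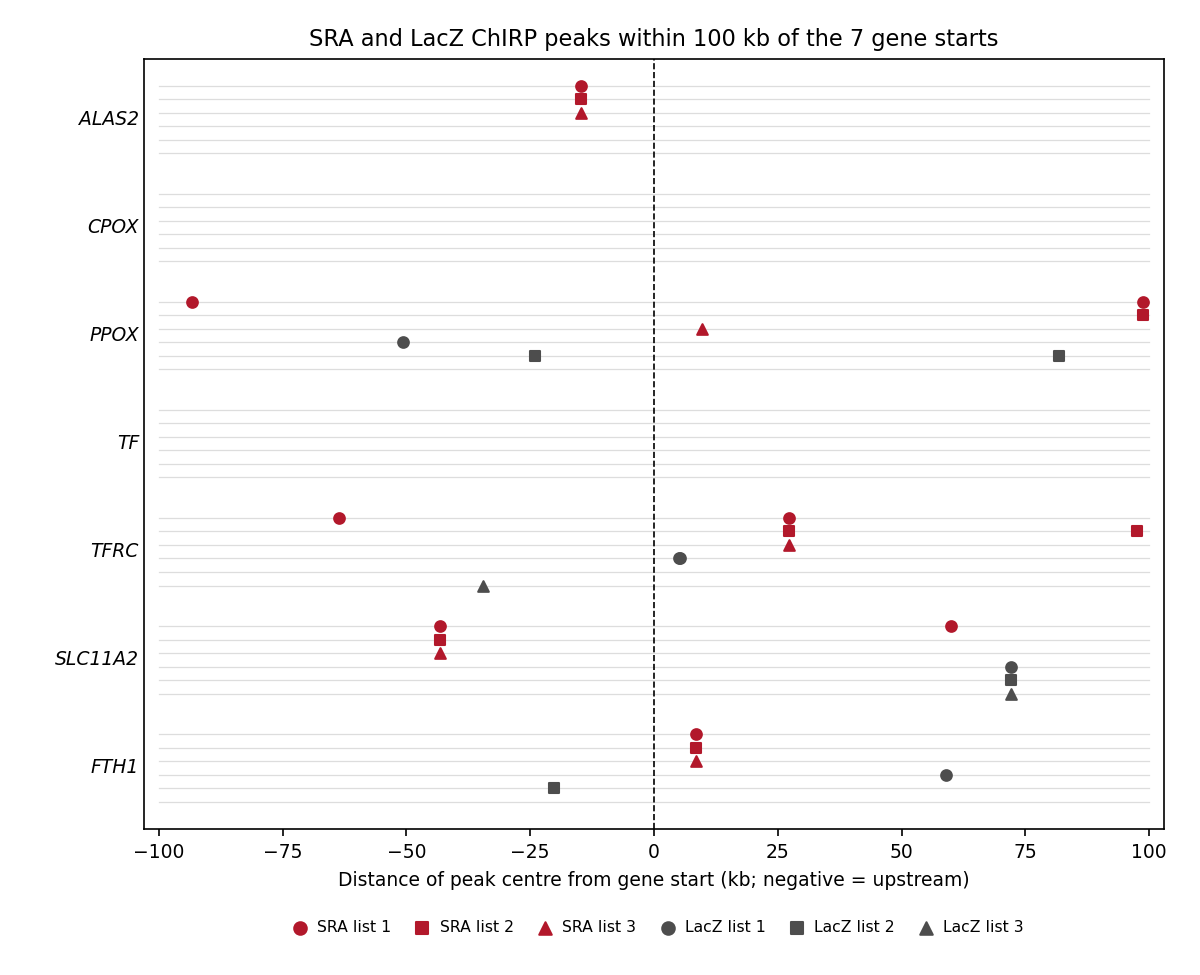
Position of each SRA (red) and LacZ (grey) peak centre within 100 kb of the start of each gene, in kb along the direction of transcription, with 1 line for each of the 6 lists; the 2 peaks of LacZ list 1 at TFRC appear as 1 point. Peaks of all 3 SRA lists stand in columns at ALAS2, TFRC, SLC11A2, and FTH1, peaks of all 3 LacZ lists in a column at SLC11A2, and CPOX and TF are empty.

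For reference, chromosomes 1 to 22 and X were divided into 15151 windows of 200 kb, the length examined around each gene. An SRA-binding region was present in 20.9% of these windows, against 5 of 7 genes. For regions in all 3 SRA lists the share of windows was 10.3%, against 4 of 7 genes. A peak of any SRA list was found in 30.8% of windows, against 5 of 7 genes, and a peak of any LacZ list in 25.0%, against 4 of 7 genes. The share of genes with a peak was thus above the share of windows for both probe sets. The windows include stretches with few genes, and the part of gene density in these counts was not tested.

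Among the heme synthesis genes, ALAS2 on chromosome X starts at 55057 kb, with the gene starts given to the nearest 1 kb. Its region, chrX:55071661-55071843 in hg19, lay 14.8 kb upstream of the start and was 183 bp wide. The score was 41.0 in SRA list 1, 50.06 in list 2, and 43.34 in list 3. The score is the value of the deposited lists, where 40 is the lowest after rounding, and the median over the list was 43.79, 43.9, and 44.31 in SRA lists 1, 2, and 3. The ALAS2 peak thus lay above the median of list 2 but below the medians of lists 1 and 3.

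The ALAS2 region stood alone. No other SRA peak of any list lay within 1000 kb of the gene, and the next was 2483.2 kb away. On chromosome X an SRA-binding region was present in 4.81% of 770 windows, fewer than on the other chromosomes that carry these genes. The nearest LacZ peak, in list 1, lay just outside the range at 106.5 kb upstream with a score of 46.92, and LacZ lists 2 and 3 had no peak within 1000 kb. In gene order, PAGE2B is the next protein-coding gene on the upstream side of ALAS2, and APEX2 is the next on the downstream side.

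PPOX, on chromosome 1 at 161136 kb, had 4 SRA peaks in the 3 lists, at 3 positions, and none was in all lists. The closest SRA peak, 9.6 kb downstream of the start at chr1:161145531-161145731, was in SRA list 3 alone with a score of 40.94, near the lowest score. A second position, 93.3 kb upstream, was in SRA list 1 alone with a score of 43.5. The SRA-binding region, chr1:161234589-161234772, lay 98.7 kb downstream, close to the limit of 100 kb, with scores of 48.86 in list 1 and 49.98 in list 2.

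LacZ peaks at PPOX lay closer to the start than the SRA peaks other than that at 9.6 kb. LacZ list 1 held 1 peak at 50.7 kb upstream, with a score of 48.79. LacZ list 2 held 2 peaks, at 24.0 kb upstream with a score of 41.5 and at 81.7 kb downstream with a score of 45.38. The neighbourhood is dense in genes, since 16 other protein-coding genes start within 100 kb of PPOX in the annotation of GRCh38, against 0 to 4 for the other genes described here. A peak in this range therefore cannot be assigned to PPOX rather than to a neighbour. The same limit holds at ALAS2, SLC11A2, and FTH1, with 4, 3, and 3 other protein-coding genes starting within 100 kb.

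CPOX, on chromosome 3 at 98312 kb, had no peak within 1000 kb in any of the 6 lists. The nearest SRA-binding region, chr3:99541127-99541231, lay 1229.2 kb from the start, and the nearest LacZ peak lay 1106.6 kb from it. In 75.2% of the 200 kb windows the centre was closer to an SRA-binding region than this. The 3 heme synthesis genes thus differed among themselves. ALAS2 had a region in all SRA lists, PPOX a region in 2 lists amid scattered peaks of both probe sets, and CPOX none. The mean score was higher for the PPOX region (49.4) than for the ALAS2 region (44.8).

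Among the iron uptake genes, TFRC had the region with the highest mean score of the 5. TFRC starts at 195809 kb on chromosome 3, and its region, chr3:195781639-195781928, lay 27.2 kb downstream of the start and was 290 bp wide. The scores were 53.99, 59.5, and 68.61 in SRA lists 1, 2, and 3. These values were at or above 89.9, 94.8, and 97.8% of the scores in the same lists, though in list 1 the FTH1 region scored higher still. Each of 2 further SRA peaks was in 1 list alone, at 63.6 kb upstream in list 1 (score 41.29) and at 97.5 kb downstream in list 2 (score 57.91).

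The peaks closest to the TFRC start were LacZ peaks. LacZ list 1 held 2 adjoining peaks at 5.0 and 5.2 kb downstream, chr3:195803926-195804159 and chr3:195803705-195803900, with scores of 48.89 and 45.85. LacZ list 3 held 1 peak of 1209 bp at 34.5 kb upstream with a score of 45.88, and LacZ list 2 had none in the range. The gap between the SRA-binding region and the nearest LacZ peak was 21.8 kb. In the gene order of GRCh38, no other protein-coding gene starts within 100 kb of TFRC, and TNK2 and ZDHHC19 are its neighbours.

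SLC11A2, on chromosome 12 at 51420 kb, had an SRA-binding region 43.3 kb upstream of its start, chr12:51463268-51463425, with scores of 42.77, 43.53, and 46.78 in SRA lists 1, 2, and 3. These scores were below the median of the list in lists 1 and 2 and above it in list 3. A second SRA peak, 60.0 kb downstream, was in list 1 alone with a score of 41.82. LETMD1 and CSRNP2 are the next protein-coding genes on the upstream side.

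A LacZ region common to all 3 LacZ lists lay on the other side of SLC11A2. It spanned chr12:51347508-51348375, with its centre 72.1 kb downstream of the start, and the peaks scored 49.44, 40.07, and 45.21 in LacZ lists 1, 2, and 3. Only 7 regions of the genome were in all 3 LacZ lists, of 5502 LacZ regions, and none of the 7 overlapped an SRA peak. Overlap between the probe sets was rare throughout the genome, at 0.901% of 8658 distinct SRA peaks, so its absence here is usual. The SRA peak at 60.0 kb was the nearest to it, at a gap of 11.6 kb. Near SLC11A2, peaks found in every list of a probe set were thus present for both SRA and LacZ, at different positions.

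TF, on chromosome 3 at 133465 kb, was the other gene without a peak. The nearest SRA-binding region, chr3:134015648-134015769, lay 550.7 kb downstream and was in the 3 SRA lists, and the nearest LacZ peak lay 2360.1 kb away. The distance to the nearest region was shorter than this in 56.9% of windows, and the median over windows was 414.6 kb. Of windows on chromosome 3, 17.1% held an SRA-binding region.

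FTH1, the iron storage gene, had the shortest distance to an SRA-binding region. The gene starts at 61735 kb on chromosome 11, and the region, chr11:61726370-61726600, lay 8.5 kb downstream of this and was 231 bp wide. The scores were 55.2, 48.13, and 61.57, at or above 91.4, 74.3, and 95.7% of the scores in SRA lists 1, 2, and 3. No other SRA peak lay within 100 kb. In gene order BEST1 is the next protein-coding gene on this side. LacZ lists 1 and 2 each held 1 peak in the range, at 58.9 kb downstream (score 47.67) and at 20.1 kb upstream (score 49.34), and LacZ list 3 held none.

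Scores of the 5 regions ranged from 41.0 to 68.61, while the highest score in SRA lists 1, 2, and 3 was 458.93, 617.14, and 292.6. By mean score, 96.0% of all SRA-binding regions were at or below the TFRC region and 90.8% at or below the FTH1 region, with means of 60.7 and 55.0. The share was 77.3% for PPOX (mean 49.4), 48.7% for ALAS2 (mean 44.8), and 44.6% for SLC11A2 (mean 44.4). The regions at TFRC and FTH1 were thus among the higher ones, and those at ALAS2 and SLC11A2 in the middle. The order of the 3 lists was not the same at each gene, since ALAS2 scored highest in list 2 but TFRC, SLC11A2, and FTH1 in list 3. The LacZ peaks near the genes had scores from 40.07 to 49.44.

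**Figure D2:**
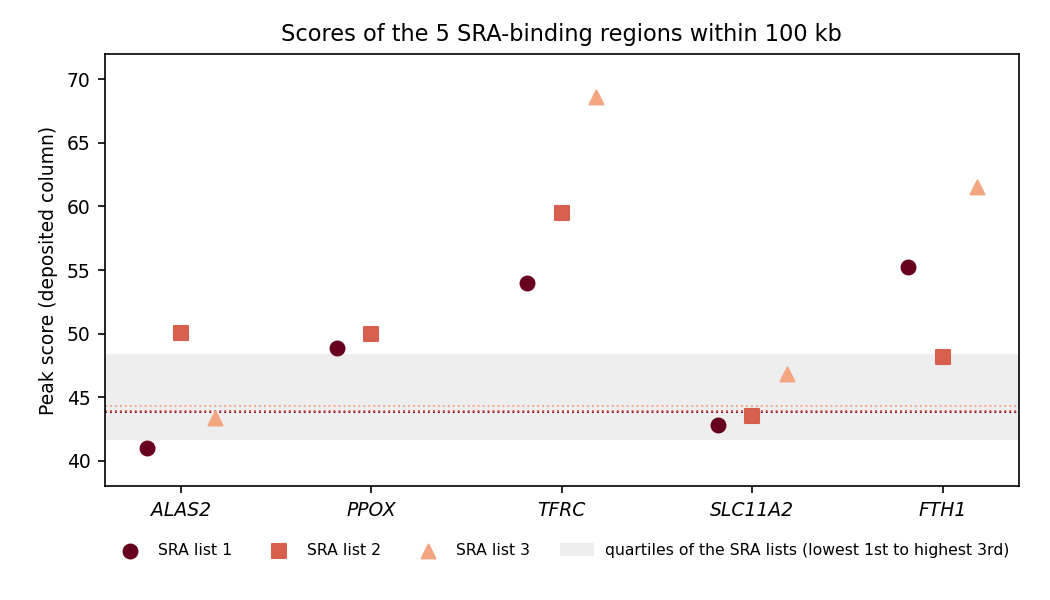
Score of each of the 5 SRA-binding regions within 100 kb of a gene start in the SRA lists that hold it. The shaded band runs from the lowest lower quartile to the highest upper quartile of the SRA lists, dotted lines are the list medians (43.79 to 44.31), and all scores at TFRC (53.99 to 68.61) lie above the band.

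Where SRA lists shared a position, they gave identical ends. Near the genes, 13 pairs of overlapping peaks were found between SRA lists, and in all 13 the start and end were equal. In the 3 overlapping pairs of LacZ peaks, all at SLC11A2, none had equal ends. In the genome all 8316 overlapping SRA pairs had equal ends, against 1 of 88 LacZ pairs. The number of SRA lists that hold a region therefore describes the deposited lists and cannot be taken as a count of independent replicates. This applies also to the rule of 2 of 3 lists. How the equal ends arose was not tested, and the spread between SRA lists is not known to be a replicate error. Of the 10 distinct SRA peaks near the genes, 4 were in all 3 lists, 1 in 2 lists, and 5 in 1 list, against 21.5, 31.6, and 46.9% of 8658 distinct SRA peaks in the genome.

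Distances to the nearest signal divided the genes into 2 sets. For ALAS2, PPOX, TFRC, SLC11A2, and FTH1 the nearest SRA-binding region was at 14.8, 98.7, 27.2, 43.3, and 8.5 kb, and for CPOX and TF at 1229.2 and 550.7 kb. The nearest LacZ peak was at 106.5, 24.0, 5.0, 72.1, and 20.1 kb for the former and at 1106.6 and 2360.1 kb for the latter. LacZ was nearer than the SRA-binding region at PPOX, TFRC, and CPOX, and farther at ALAS2, SLC11A2, FTH1, and TF, although at PPOX the single-list SRA peak at 9.6 kb was nearer than LacZ. The genes without nearby SRA peaks were therefore also those farthest from LacZ peaks. When the range was narrowed, 4 genes had a region within 50 kb, against 12.1% of 100 kb windows, and 1, FTH1, within 10 kb, against 2.81% of 20 kb windows.

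**Figure D3:**
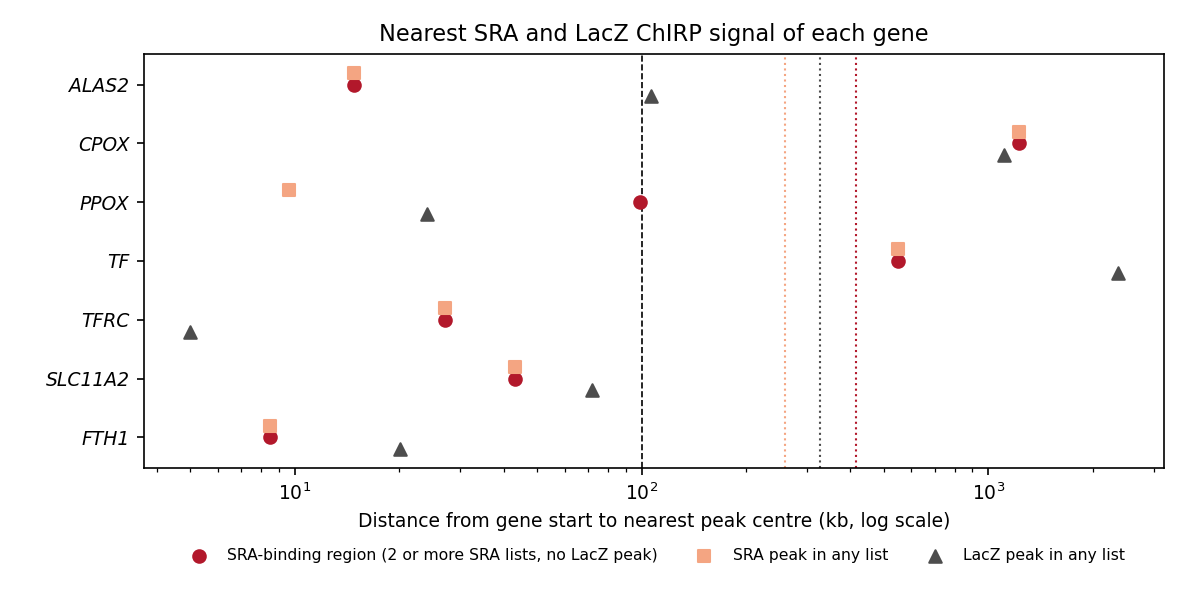
Distance from each gene start to the nearest SRA-binding region, SRA peak of any list, and LacZ peak of any list, in kb on a log axis, where the dashed line marks 100 kb and dotted lines mark the median distance from the centres of 200 kb windows (414.6 kb for regions, 258.6 kb for SRA peaks, and 327.8 kb for LacZ peaks). CPOX and TF lie to the right of the dashed line for each kind of signal.

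To compare the probe sets, peaks within 100 kb of the 7 genes were counted in each list. SRA lists 1, 2, and 3 held 8, 6, and 5 such peaks and LacZ lists 1, 2, and 3 held 5, 4, and 2, so the groups met at 5. The 5 of LacZ list 1 include the 2 adjoining peaks at TFRC, counted separately. The meeting of the groups depends on this, and the comparison was not repeated with adjoining peaks joined. The means were 6.33 and 3.67 ± 1.53 (SD, n = 3 LacZ lists), a difference of 2.67 peaks (two-sided exact permutation test, p = 0.2, where 3 lists against 3 allow no p below 0.1). The SRA lists, with their shared ends, may amount to 1 sample, and the exact permutation test then gives p = 0.5 with none below 0.25 possible, which says nothing for or against a difference. Within 50 kb the lists held 4, 4, and 5 peaks for SRA and 2, 2, and 1 for LacZ. As shares of the list these were 0.0803, 0.0809, and 0.0964% for SRA and 0.0747, 0.0764, and 0.345% for LacZ, so the numbers did not overlap between the groups but the shares did.

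The direction turned on the scale of peaks per list length, and with every list limited to its 290 highest-scoring peaks there were 0, 1, and 2 peaks for SRA and 0, 0, and 2 for LacZ (two-sided exact permutation test, p = 1.0). Peaks near the 7 genes made up 0.161, 0.121, and 0.0964% of SRA lists 1, 2, and 3. In the LacZ lists they made up 0.187, 0.153, and 0.69%. The 95% Wilson intervals, which cover counting error only, overlapped throughout, with 0.0814 to 0.317% for SRA list 1 and 0.0798 to 0.437% for LacZ list 1. Per 1000 peaks the mean was 1.26 for SRA and 3.43 for LacZ (two-sided exact permutation test, p = 0.2), and 1.70 for LacZ without list 3, which holds few and wide peaks (p = 0.3 by the same exact test, smallest possible 0.1). On both scales the values of single SRA and LacZ lists overlapped.

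Counted by gene, each SRA list had a peak near 5 of 7 genes (71.4%), against 22.3, 22.1, and 22.1% of windows in lists 1, 2, and 3. LacZ lists 1, 2, and 3 had a peak near 4, 3, and 2 genes, against 14.5, 14.3, and 1.83% of windows. The share of genes over the share of windows was 3.21, 3.23, and 3.24 in the SRA lists and 3.95, 3.0, and 15.6 in the LacZ lists. The share of genes was thus above the share of windows in every list. The highest value this ratio can reach depends on the share of windows, so it cannot rank lists of unlike length. In LacZ list 3 it rests on 2 genes.

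**Figure D4:**
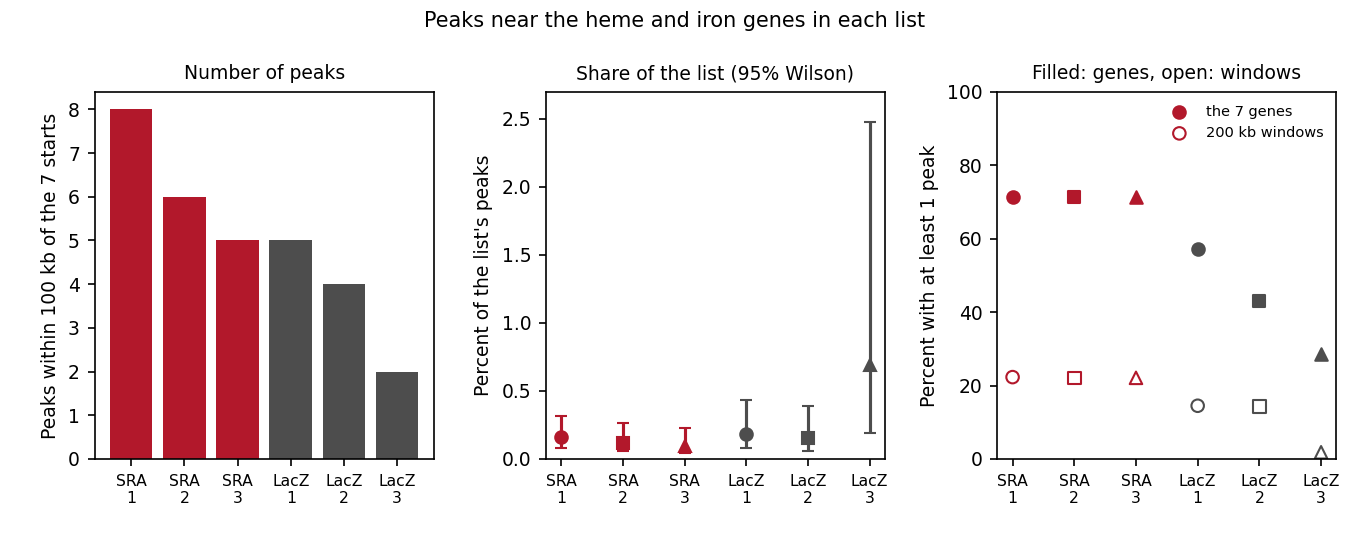
Peaks within 100 kb of the 7 gene starts in each list, as the number of peaks (left, bars), as percent of the list with 95% Wilson intervals (middle), and as percent of the 7 genes (filled) and of 200 kb windows (open) with at least 1 peak (right). Numbers are 8, 6, and 5 for SRA and 5, 4, and 2 for LacZ, while the shares of the list overlap.

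In the wider neighbourhood of 500 kb, TFRC had 10, 7, and 9 peaks in SRA lists 1, 2, and 3 and 7, 5, and 1 in LacZ lists 1, 2, and 3. PPOX had 9, 10, and 7 SRA peaks and 6, 4, and 0 LacZ peaks. At FTH1 the numbers were 3, 5, and 6 for SRA and 2, 2, and 0 for LacZ. SRA counts were above all LacZ counts at PPOX and FTH1, but as shares of the list the groups overlapped, with 0.181, 0.202, and 0.135% of SRA and 0.224, 0.153, and 0% of LacZ peaks at PPOX. At FTH1 the shares were 0.0602, 0.101, and 0.116% for SRA and 0.0747, 0.0764, and 0% for LacZ. At TFRC the counts met at 7. They overlapped at SLC11A2, with 5, 3, and 4 SRA peaks and 1, 4, and 1 LacZ peaks, and at ALAS2, with 1 SRA peak in each list and 2, 0, and 0 LacZ peaks. CPOX and TF had none in any list. The genes with many SRA peaks in the neighbourhood, TFRC and PPOX, thus also had the most LacZ peaks in lists 1 and 2 combined. Over all 7 genes the SRA lists held 28, 26, and 27 peaks within 500 kb and the LacZ lists 18, 15, and 2. As shares of the list these were 0.562, 0.526, and 0.521% for SRA and 0.673, 0.573, and 0.69% for LacZ. The numbers were higher for SRA and the shares higher for LacZ, with wide counting intervals (0.189 to 2.48% for LacZ list 3). The shares overlapped within 200 kb, with 0.241, 0.182, and 0.193% for SRA and 0.336, 0.229, and 0.69% for LacZ, and within 1000 kb, with 0.963, 0.89, and 0.945% for SRA and 0.859, 0.879, and 1.03% for LacZ. They thus did not differ in the same direction at every range. An SRA-binding region lay within 500 kb of 5 of 7 genes, against 54.2% of 1000 kb windows.

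**Figure D5:**
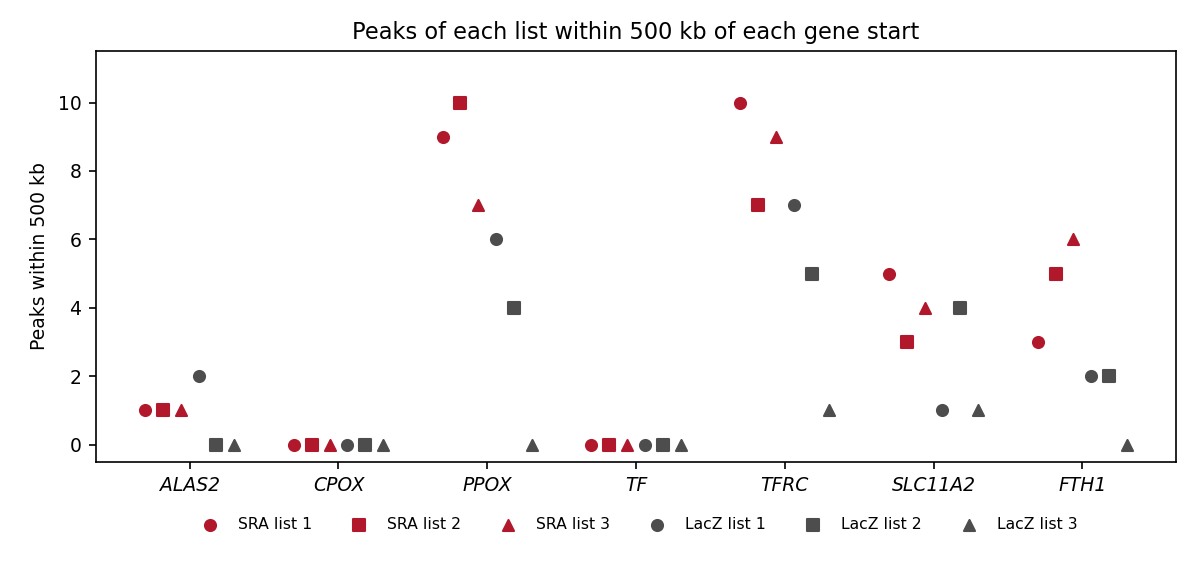
Number of peaks of each SRA (red) and LacZ (grey) list within 500 kb of each gene start. TFRC and PPOX have 7 to 10 SRA peaks per list, ALAS2 has 1 in each SRA list, and CPOX and TF have 0 in all 6 lists.

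Few peaks lay at the edge of the range. Inside it were the PPOX peaks at 93.3 and 98.7 kb and the TFRC peak at 97.5 kb. Just outside were a TFRC peak of SRA list 3 at 102.5 kb (score 44.87), a TFRC peak of LacZ list 2 at 104.1 kb (score 45.49), and the ALAS2 peak of LacZ list 1 at 106.5 kb. With the range narrowed to 50 kb the PPOX region was lost and the other 4 regions were kept.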

How the data were processed

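ChIRP-seq of K562 cells comprised 3 SRA, 3 LacZ, and 3 input samples. Reads were placed on hg19 by the authors, and the submitters' processing notes name CASAVA 1.8.2, deepTools, and MACS. The aligner, MACS version, and control of each list are not given in the sources used here. The deposited score of each peak is headed −log10 of the p-value but starts at 40, as 10 times −log10 gives for 0.0001, and was used only to rank peaks.

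Gene starts in hg19 were given with the list of genes, to the nearest 1 kb. On chromosome 3 their spacings differed from GENCODE release 44 (GRCh38) by at most 0.0127%. In kb, TFRC to TF was 62344 against 62336, TFRC to CPOX 97497 against 97489, and TF to CPOX 35153 against 35152. Made between assemblies, this check cannot show that the starts are right to 1 kb, and genes on other chromosomes were not checked. Otherwise GENCODE was used for strands, gene order, and gene density alone, and gene ends, exons, and sequences in hg19 were not used. Peaks sharing at least 1 bp were merged. Distances run from the peak centre. Chromosomes were tiled up to the last peak. All 7 genes are described. The genes, ranges, and rules were chosen with earlier results of these data known. Merging and distances were tested on simulated peak lists. Alternatives varied the number of lists, LacZ removal, score, range, joining of gaps, and lists used. The number of lists, LacZ removal, and joining of gaps were varied for the SRA-binding regions only, not for the comparison of SRA with LacZ lists. The work was run in Python 3.11.15 with numpy 2.4.6 and pandas 2.3.3 for the tables, scipy 1.17.1 for intervals, and matplotlib 3.10.9 for plots.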

Additional observations from a re-analysis of the deposited data

How the results depend on the processing

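SRA-binding regions within 100 kb numbered 5, and 4 to 5 when single lists were left out, and the genes with a region gave the same numbers. Without SRA replicate 1 or 2 the region at PPOX was lost, because both remaining lists were then required. The number of regions was 10 with a peak in any SRA list, 8 within 200 kb, and 23 within 500 kb, with 5 genes in each case, while windows of the matching length with a region rose from 20.9% to 33.7% within 200 kb and 54.2% within 500 kb. Within 1000 kb it was 6 genes against 70.6%. When each list was limited to its upper scores, from the median on, 3 regions and 3 genes were left (FTH1, PPOX, and TFRC; 11.6% of windows), and with 290 peaks in every list, 1 region and 1 gene (TFRC; 1.28% of windows), as fewer peaks entered. The difference of 2.67 peaks between SRA and LacZ lists was 1.83 to 3.33 with single lists left out, the lowest without SRA replicate 1 or LacZ replicate 3, 0.333 with 290 peaks in every list, 0.667 from the median score on, 4.67 within 200 kb, and 15.3 within 500 kb. It was again 2.67 within 50 kb. As numbers of peaks, the lists did not overlap within 50 and 500 kb (two-sided exact permutation p = 0.1 for each, the smallest possible). Both p-values take the 3 SRA lists as separate samples. As shares of the list the groups overlapped within 50 kb. Within 500 kb the shares were lower for SRA (0.521 to 0.562%) than for LacZ (0.573 to 0.69%). Per 1000 peaks of the list the difference within 100 kb reversed to −2.17, and to −0.439 without LacZ replicate 3, since SRA lists are longer. These 2 alternatives were chosen after seeing the data. Taking same-numbered lists as pairs (replicate block) gave 2.67 (exact sign-flip permutation p = 0.25, the smallest that 3 pairs allow). Correlations of deviations over 200 kb windows were −0.001, 0.005, and −0.057 for same-numbered lists and −0.033 to 0.042 for differently numbered lists. With few peaks per window, these values cannot show whether the samples were paired. The numbers were not used as pairs in the main comparison. The block, and the SRA lists counted as 1 sample (also added after seeing the data), leave the difference at 2.67 by construction and say nothing about its stability. Read depth is unknown, and signal near CPOX and TF below the threshold of the lists was not analysed here.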
